A study of Drosophila melanogaster with 9 samples.

Results

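The data describe crosslinks of the TRIM-NHL protein Mei-P26 on 10 Drosophila genes that build or regulate the actin cytoskeleton: chic, Mlc-c, Swip-1, sqh, tsr, zip, Tm1, Act42A, capt and cher. They were taken by symbol from 6780 genes that held at least 1 cDNA in any library. Act5C was left out because the expression plasmids carry its promoter. Crosslinks were mapped by iCLIP2, in which reverse transcription tends to end at the nucleotide that UV light joined to the immunoprecipitated protein, so that each distinct cDNA points to 1 nucleotide. Cultured Drosophila Schneider cells (SL2 in the sample labels, S2R+ in the growth text) received 15 µg of plasmid DNA per dish, driven by an actin promoter, and were crosslinked 48 h later with UV light (300 mJ/cm² by the labels, whereas the methods give another dose). The plasmids encoded either the whole Mei-P26 protein (full-length) or amino acids 908 to 1206, which form the NHL domain, each with a FLAG tag, and these proteins are called baits. The sample labels and the methods give non-transfected cells as control, whereas the treatment text common to all samples names proteins with impaired RNA binding. Lysates were treated with 10 U RNase I. The sample labels name an anti-FLAG antibody for the precipitation of all 9 libraries, while the protocol text also mentions a control serum. Each group had 3 biological replicates. The baits were overexpressed in a cell line with little endogenous Mei-P26, which is best known from the germline.

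Libraries differed widely in depth. The full-length libraries held 1878 to 21831 cDNAs, the NHL libraries 4321 to 40032 and the control libraries 849 to 1252. Replicate 3 supplied 56.9% of the full-length and 76.5% of the NHL cDNAs. The mei-P26 gene, the check of the labels, held 122 to 345 cDNAs per 10000 in full-length, 106 to 134 in NHL and 24.0 to 130 in control libraries. Control replicate 3, with 130 per 10000 from 11 cDNAs, lay within the range of both baits, so the check did not set that library apart. Of 10 genes chosen to mark hemocyte-like cells, which Schneider cells resemble, 7 held cDNAs, and Hml, He and NimC1 had none. Their summed level was 42.6 to 80.6 cDNAs per 10000 in full-length, 23.9 to 44.7 in NHL and 11.8 to 79.9 in control libraries. A cDNA was found for 1 of 6 germline, 2 of 3 neuron and 2 of 6 muscle markers. In full-length, NHL and control libraries the germline markers held 2, 0 and 0 cDNAs in sum. The neuron markers held 4, 5 and 0 and the muscle markers 1, 6 and 0, beside 266, 212 and 20 for the hemocyte-like markers. A crosslink count depends on both the abundance of an mRNA and its contact with the bait, and mRNA abundance was not measured.

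Actin monomers assemble into polar filaments that are lengthened, severed and recycled by binding proteins, and pulled by non-muscle myosin II. Profilin, encoded by chic, loads monomers for assembly. Cofilin, encoded by tsr, severs filaments, and the cyclase-associated protein encoded by capt helps to recycle the monomers. Myosin II consists of the heavy chain encoded by zip, the regulatory light chain encoded by sqh and the essential light chain encoded by Mlc-c. Tropomyosin (Tm1) lies along filaments, filamin (cher) crosslinks them, and Swip-1 is an EF-hand protein whose mammalian relatives bind actin. Act42A encodes a cytoplasmic actin. Several TRIM-NHL proteins contact RNA through the NHL domain. For Mei-P26 the study reports evidence that other parts of the protein also contribute to binding.

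Sequences used in the study are shown for Mlc-c and Swip-1, because they show the kind of uridine-rich element tested for binding to the NHL domain. The Mlc-c oligonucleotide is the RNA of 16 nt used in the binding assays, and the other sequences are sites the study lists for these genes. Capitals mark matches to any of 4 motifs of 7 nt searched on the given strand that can overlap. These are UUUUACN, the related UUUUANA, the related UUUUNCA and a run of 7 uridines, where N is any base.
Mlc-c oligonucleotide: ggucuUUUUACAaaag
Mlc-c listed site: uUUUUACA
Swip-1 listed site: UUUUAGA
The Mlc-c oligonucleotide matched 3 of the 4 motifs, each starting at position 6 from its 5′ end, and it contains the listed site whole. The Swip-1 site matched UUUUANA alone. Of the 6 gene-derived oligonucleotides of the binding assays, 4 held at least 1 of the motifs. The distance of these elements from the crosslinks was not analysed here.

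The 10 genes together held 263 cDNAs in full-length, 275 in NHL and 15 in control libraries. Scaled to the library, replicates 1, 2 and 3 gave 47.0, 58.6 and 83.8 cDNAs per 10000 for the full-length protein. The NHL libraries gave 62.5, 31.5 and 55.7, and the control libraries 63.9, 34.5 and 35.3. The libraries of all 3 groups overlapped, with means of 63.1 ± 18.8 (SD, n = 3), 49.9 ± 16.3 and 44.6 ± 16.7 cDNAs per 10000. The higher counts of the 10 genes with the baits went with the depth of those libraries. Replicate 3 supplied 69.6% of their full-length and 81.1% of their NHL cDNAs.

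**Figure D1:**
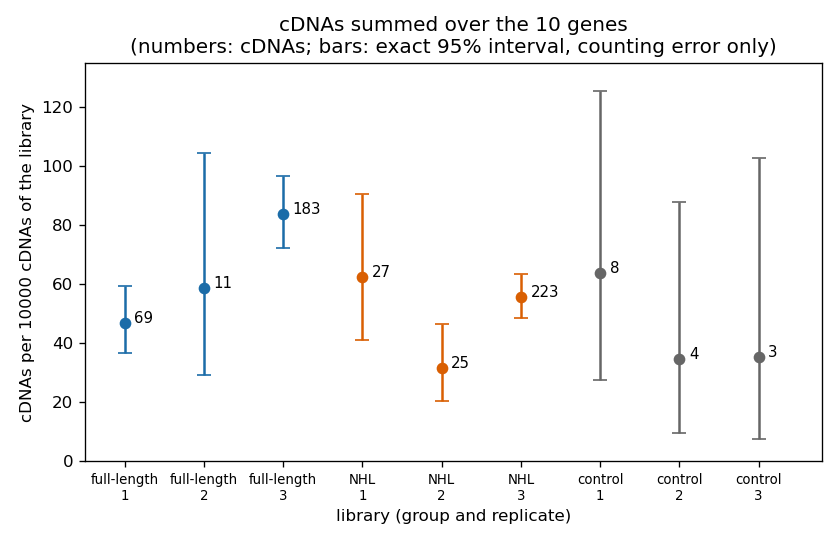
cDNAs summed over the 10 actin cytoskeleton genes per 10000 cDNAs of the library (y axis) in each of the 9 libraries (x axis). Points are single libraries, numbers beside them are cDNAs, and bars are exact (Clopper-Pearson) 95% confidence intervals, which cover counting error only. The control libraries, with 3 to 8 cDNAs each, have the widest intervals and lie within the range of the bait libraries.

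To ask which genes differed between the groups, cDNA counts per gene were fitted with edgeR's quasi-likelihood test over all genes. None of the 10 genes passed the filter on low counts, which kept 73 genes. Of those 73, 6.85% were called for full-length against control, 0% for NHL against control and 41.1% for full-length against NHL, so this fit says nothing about the cytoskeleton genes. Without the filter all 10 genes were tested among 6780, and edgeR called 0 of them in each comparison, against 0.0442%, 0.221% and 0.265% of all genes in the same order. DESeq2 also called 0. At an unadjusted edgeR p under 0.05 there were 3 of the 10 for full-length against control (Act42A, sqh and Tm1), 1 for NHL against control (Act42A) and 0 between the baits, beside 2.51%, 2.92% and 4.14% of all genes. Against the control, this fit gave positive log2 fold changes for each of the 10 genes with either bait. With the full-length protein they were 1.35 for chic, 1.13 for Swip-1 and 0.351 for tsr. The ratios of pooled cDNAs, scaled to the library totals, were 1.08, 0.871 and 0.481 for the same genes. For these genes the fit thus lay higher against the control than the rates, and its unadjusted p-values should be read with that shift. The smallest adjusted p among the 10 genes was 0.777, 0.725 and 0.633 in the 3 comparisons (edgeR, Benjamini-Hochberg).

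Rates per 10000 cDNAs were then compared gene by gene with two-sided exact permutation tests, which with 3 libraries against 3 cannot give a p below 0.1. Of 30 tests, 5 reached this value, and each had an adjusted p of 0.6. These 5 are the cases in which the groups did not overlap, and they concern Act42A, sqh and Tm1. Every full-length library exceeded every control library for 3 of the 10 genes, against 12.4% of the 1804 genes with at least 10 bait cDNAs. Every NHL library exceeded every control library for 1 gene, against 14.9%. Full-length exceeded NHL for 1 gene, against 6.37%, and NHL exceeded full-length for 0 genes, against 7.48%. Each of the 10 genes held at least 20 bait cDNAs, and the shares among genes with that minimum are not given here. The 2 comparisons against the control share the same control libraries, and 5 such cases became 8 without NHL replicate 2 or NHL replicate 3 and 9 without control replicate 1. Fewer libraries separate more easily, and the share of all genes under these settings is not given here.

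Act42A on the minus strand of chromosome 2R had the most cDNAs of the 10 genes, 137 with the baits and 1 in the control. Its rate in replicates 1, 2 and 3 was 9.53, 10.6 and 18.3 cDNAs per 10000 with the full-length protein and 9.26, 8.81 and 17.5 with the NHL domain. The control had 7.99, 0 and 0. Both baits lay above the control in every library, but the control library nearest to them held a single Act42A cDNA. The pooled full-length rate was 4.76 times that of the control (95% interval 0.819 to 191) and the pooled NHL rate 5.05 times (0.881 to 202), intervals for counting error that include equal rates. Between the baits the pooled ratio was 0.942 (0.658 to 1.34).

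The actin-binding proteins that handle monomers showed no separation between the groups. For chic, on the minus strand of chromosome 2L, replicates 1, 2 and 3 gave 3.40, 10.6 and 20.2 cDNAs per 10000 with the full-length protein. The NHL libraries gave 9.26, 15.1 and 9.49, and the control libraries 7.99, 8.62 and 23.6. The highest value was thus that of a control library, which held 2 chic cDNAs. For tsr, on the minus strand of chromosome 2R, the rates were 4.77, 0 and 4.58 with the full-length protein and 13.9, 2.52 and 6.74 with the NHL domain. The control gave 24.0, 0 and 0, all 3 cDNAs coming from replicate 1. For capt, on the minus strand of chromosome 2L, 11 full-length and 12 NHL cDNAs stood against none in the control. The control total of 3261 cDNAs allows a rate of up to 9.20 per 10000 for a count of 0 (a floor of 3 counts over the group), which is above the pooled capt rate of both baits, 2.87 and 2.29. A difference from the control was therefore not detectable for capt at this depth.

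Of the myosin II subunits, sqh on the minus strand of chromosome X gave 2.72, 16.0 and 6.41 cDNAs per 10000 in full-length replicates 1, 2 and 3. The NHL libraries gave 2.31, 0 and 3.75, and the control libraries held none. The full-length libraries all lay above the control and overlapped with the NHL libraries, but the pooled full-length rate of 5.47 was below the limit of 9.20 that the empty control allows. For Mlc-c, also on the minus strand of chromosome X, full-length libraries gave 2.72, 0 and 8.25 and NHL libraries 6.94, 0 and 3.50. The control gave 7.99, 0 and 0, from 1 cDNA, and the 3 groups overlapped. For zip, on the minus strand of chromosome 2R, full-length libraries gave 1.36, 5.32 and 5.04 and NHL libraries 0, 0 and 1.75. The pooled counts of zip were 14 and 7, a full-length to NHL ratio of 2.72 (counting interval 1.03 to 7.98), while the libraries overlapped with the control, where replicate 1 held 1 cDNA.

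Tropomyosin was the 1 gene of the 10 whose bait libraries did not overlap. Tm1 on the plus strand of chromosome 3R gave 6.13, 10.6 and 4.12 cDNAs per 10000 with the full-length protein and 0, 2.52 and 1.25 with the NHL domain. The control held no Tm1 cDNA. All full-length libraries exceeded all NHL libraries, with means of 6.97 ± 3.34 (SD, n = 3) and 1.26 ± 1.26 (exact permutation p = 0.1, adjusted p = 0.6). The pooled counts were 20 and 7, a ratio of 3.89 (counting interval 1.58 to 10.9). The mean difference was 5.71 cDNAs per 10000 and ranged from 3.87 to 7.13 when single libraries were left out. In edgeR without the filter, Tm1 had a log2 fold change of 1.63 between the baits with a standard error of 0.95 (adjusted p = 0.633). Against the control no fold is given, since the pooled full-length rate of 5.21 is below the limit of 9.20.

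Swip-1, on the minus strand of chromosome 2L, gave 11.6, 5.32 and 10.5 cDNAs per 10000 with the full-length protein and 9.26, 2.52 and 6.00 with the NHL domain. The control gave 0, 25.9 and 11.8, from 4 cDNAs. The highest value was again in a control library, and the groups overlapped. Pooled over libraries, the full-length protein had 41 and the NHL domain 30 Swip-1 cDNAs, a ratio of 1.86 (counting interval 1.13 to 3.09), but the exact permutation test between the baits gave p = 0.3 (adjusted p = 0.923). For cher, on the minus strand of chromosome 3R, full-length libraries gave 2.72, 0 and 2.75 and NHL libraries 2.31, 0 and 3.75. Control replicate 1 held 1 cher cDNA, and the groups overlapped.

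**Figure D2:**
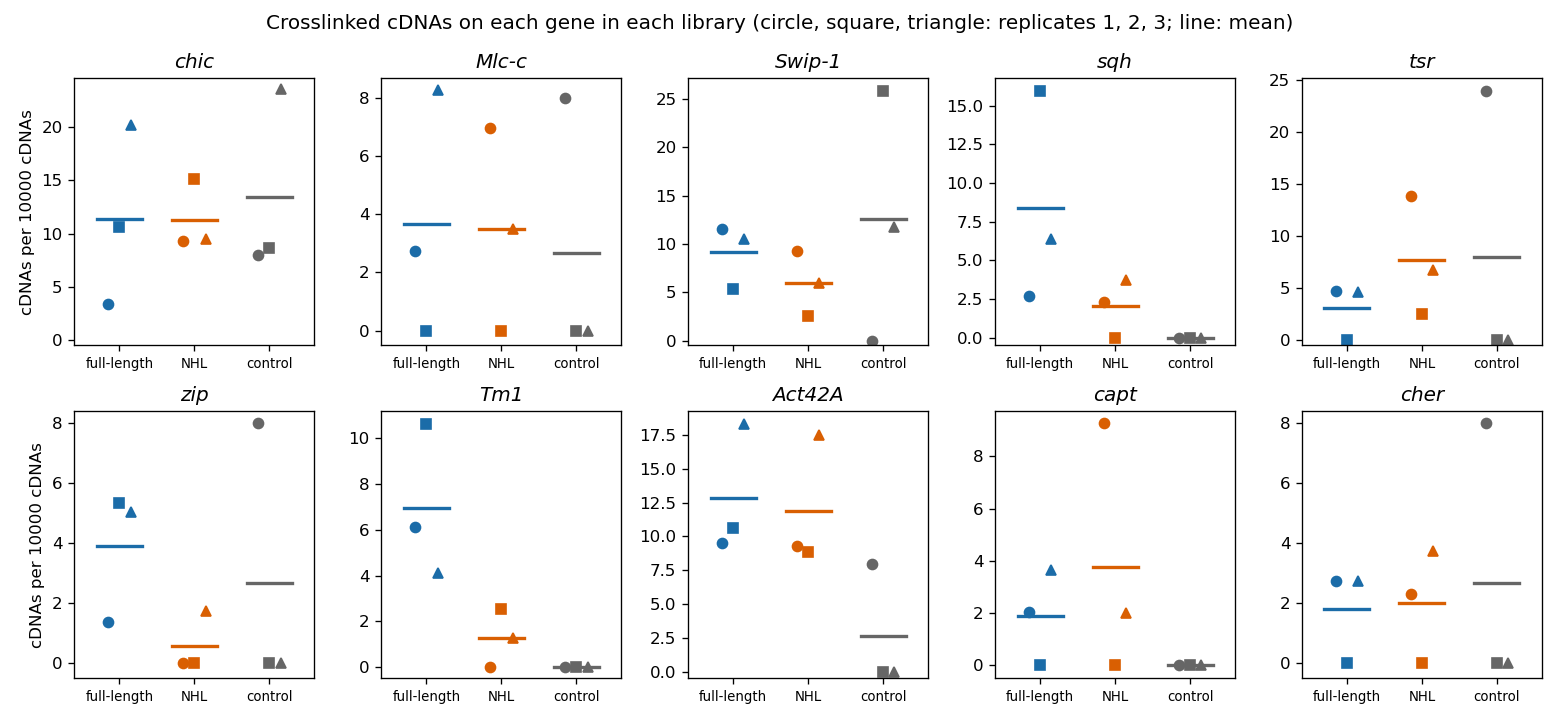
cDNAs per 10000 cDNAs of the library (y axes, scaled for each gene) on each of the 10 genes in the full-length, NHL and control libraries (x axes). Circles, squares and triangles are replicates 1, 2 and 3 and lines are means of 3 libraries. Full-length points lie above all NHL points for Tm1, and both baits lie above the control for Act42A, whose highest control value is 7.99.

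Clusters, the runs of significant crosslinked nucleotides that the authors joined in each library, show where cDNAs gathered. The 10 genes held 9 full-length clusters, 8 NHL clusters and no control cluster. Full-length clusters lay in 5 of the 10 genes, where 45.3% of the 834 genes with at least 20 bait cDNAs, a minimum each of the 10 genes passes, held one. NHL clusters lay in 6 of the 10 genes, where the share of the same genes was 52.9%, and control clusters in 0, where it was 5.52%. Clusters of both baits were found in 4 of the 10 genes (chic, Mlc-c, Swip-1 and Act42A). The share was 15.2% among genes with at least 10 bait cDNAs and 29.4% among those with at least 20. All clusters but 1 came from the deepest library of the bait, replicate 3. Without full-length replicate 3 or without NHL replicate 3, 0 of the 10 genes kept clusters of both baits. Clusters held 15.6% of the full-length and 22.2% of the NHL cDNAs of the 10 genes, beside 13.7% and 27.8% of all cDNAs.

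Clusters of the baits overlapped in 3 of these 4 genes. In Mlc-c the full-length cluster spanned chrX:5619177-5619181 with 5 cDNAs and the NHL cluster chrX:5619177-5619180 with 4. In chic the full-length cluster chr2L:5973234-5973241 and the NHL cluster chr2L:5973230-5973243 held 7 cDNAs each and overlapped. A second pair lay upstream in the transcript, at chr2L:5973266-5973267 with 3 full-length cDNAs and at chr2L:5973272-5973274 with 5 NHL cDNAs, 5 nt apart. In Act42A the full-length cluster chr2R:6014001-6014013 with 13 cDNAs overlapped the NHL cluster chr2R:6014006-6014014 with 9. A larger NHL cluster of Act42A, chr2R:6013945-6013971 with 17 cDNAs, lay 30 nt from the nearest full-length cluster. In Swip-1 the nearest clusters, chr2L:18977557-18977560 with 3 full-length cDNAs and chr2L:18977565-18977571 with 5 NHL cDNAs, lay 5 nt apart. Swip-1 had 2 further full-length clusters of 3 cDNAs each, chr2L:18977602-18977603 and chr2L:18977925, which lay 31 and 354 nt from the nearest NHL cluster. The overlapping or neighbouring clusters began 11 to 74 nt from the 3′-most crosslinked nucleotide in Mlc-c, Swip-1 and Act42A, but 1088 to 1130 nt from it in chic.

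**Figure D3:**
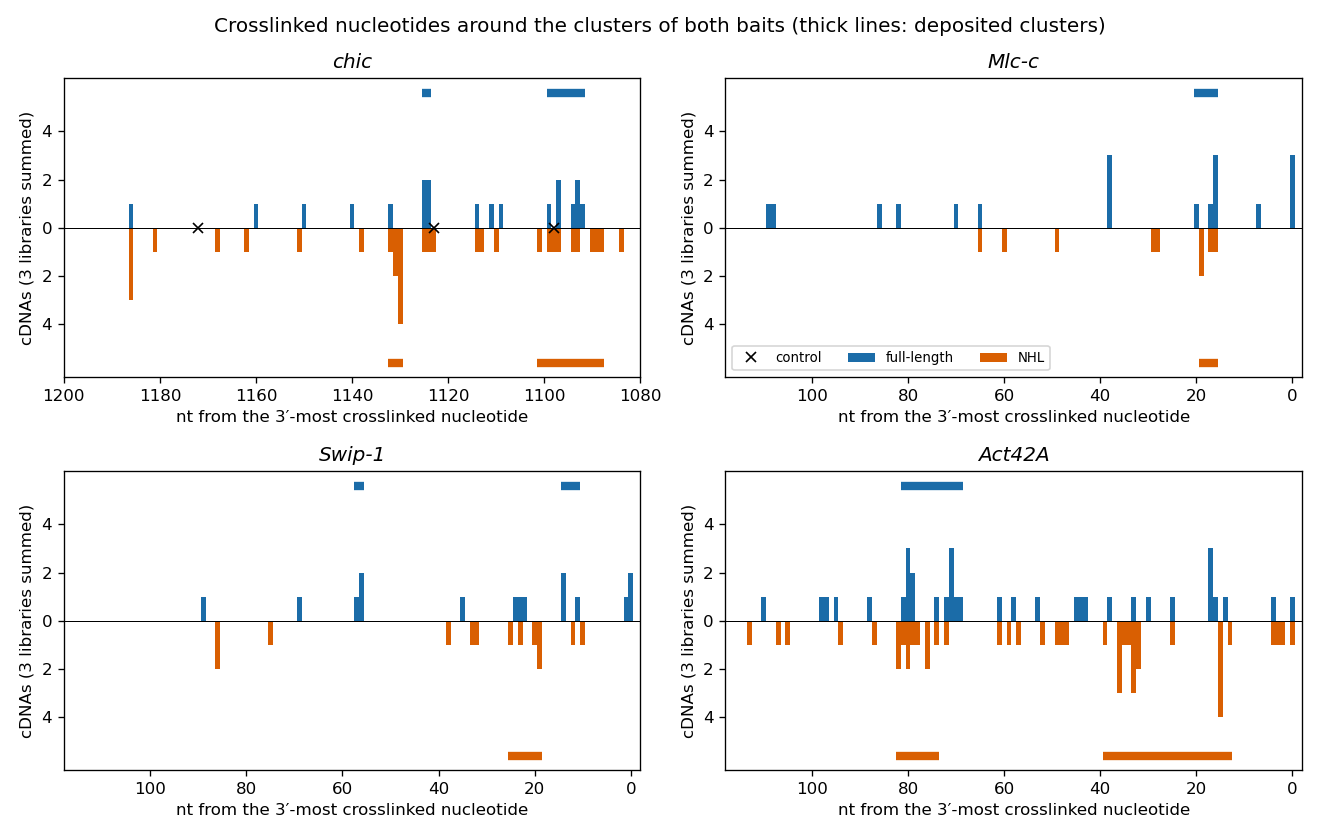
cDNAs per nucleotide, summed over 3 libraries (y axes; full-length upwards, NHL downwards), against the distance in nt from the 3′-most crosslinked nucleotide (x axes, 3′ end at the right), for the 4 genes in which each bait had a cluster. Thick lines are deposited clusters and crosses are control cDNAs. Clusters of the baits overlap in chic, Mlc-c and Act42A, and the nearest lie 5 nt apart in Swip-1.

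In tsr, capt and cher only 1 of the baits had a cluster. In tsr an NHL cluster of 10 cDNAs, chr2R:24044481-24044488, began at the 3′-most crosslinked nucleotide. In capt the NHL domain had a cluster of a single nucleotide with 4 cDNAs, chr2L:1151742. In cher the full-length protein had 2 clusters of 2 cDNAs each, at chr3R:17091736 in replicate 3 and chr3R:17091806-17091808 in replicate 1, the latter being the cluster outside replicate 3. The genes sqh, zip and Tm1 held no cluster.

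The baits left cDNAs on 443 nucleotides of the 10 genes, 85.3% of which held a single cDNA, and 21 held 3 or more. A nucleotide was called recurrent where at least 2 of the 3 libraries of a bait held a cDNA. With the full-length protein 3 of the 10 genes had such a nucleotide (chic, Mlc-c and Act42A), where the share was 20.1% of genes with at least 10 and 37.4% of genes with at least 20 bait cDNAs. With the NHL domain 5 of the 10 genes had one (chic, Swip-1, sqh, tsr and Act42A), where the shares were 24.3% and 42.3%. None of the 3 full-length and 8 NHL nucleotides recurred with both baits, and none was found in 3 of 3 libraries. For the full-length protein, leaving out replicate 1 or replicate 3 left 0 genes. The NHL count was 3 without NHL replicate 1 or without NHL replicate 2 and 0 without NHL replicate 3.

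Of the genes with recurrent nucleotides, only chic and Act42A had any inside a cluster, and sqh held no cluster at all. In chic, position 5973267 held 1 cDNA in each of full-length replicates 1 and 3 and 1 in NHL replicate 3. Position 5973272, at the edge of an NHL cluster, held 2 cDNAs in each of NHL replicates 2 and 3. A further chic position, 5973328, held 2 and 1 in the same NHL libraries and 1 in full-length replicate 1. In Mlc-c the recurrent position 5619199 held 1 and 2 cDNAs in full-length replicates 1 and 3 and lay 38 nt from the 3′-most crosslink, upstream of the shared clusters, which began at 16 nt. In tsr, position 24046730 held 2 and 1 cDNAs in NHL replicates 1 and 3, and it was the 5′-most crosslinked nucleotide of the gene. With a tolerance of 5 nt, 7 of the 10 genes had a recurrent place with the full-length protein and 8 with the NHL domain, beside 66.4% and 60.9% of the 834 genes.

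Act42A and chic had the most nucleotides with repeated crosslinks. Of the 21 nucleotides with 3 or more bait cDNAs, 8 lay in Act42A, 6 in chic, 3 in Mlc-c, 2 in tsr and 1 each in Swip-1 and capt. The highest count was 5, at position 6014012 of Act42A, with 3 full-length and 2 NHL cDNAs. In Mlc-c, position 5619177 at the edge of both clusters held 3 full-length and 1 NHL cDNAs, and the 3′-most crosslinked nucleotide, 5619161, held 3 full-length cDNAs alone. Both baits were present at 9 of the 21 nucleotides, and none of the 21 held a control cDNA. These nucleotides were picked by their bait cDNAs, and the control held only 15 cDNAs on the 10 genes. The absence of control cDNAs there therefore cannot tell the baits from the background.

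Along most of the 10 genes, cDNAs gathered toward the 3′ end of the crosslinked stretch, which runs from the first to the last nucleotide with a cDNA in any library, introns included. In the last 20% of this stretch lay 90.9% of the full-length cDNAs of Mlc-c (20 of 22, exact 95% interval 70.8% to 98.9%) and 82.4% of its NHL cDNAs (14 of 17, 56.6% to 96.2%). For Swip-1 the shares were 90.2% (37 of 41) and 90.0% (27 of 30), and for Act42A 78.6% (44 of 56) and 70.4% (57 of 81). Genes are not alike on this scale, since the stretch was 785 nt in sqh and 27499 nt in cher. Over the genes with at least 20 crosslinked nucleotides and 5 cDNAs of the bait, the median share was 82.4% for full-length and 71.4% for NHL cDNAs in 9 of the 10 genes, capt having fewer nucleotides. In the other genes it was 64.3% (713 genes) and 58.3% (717 genes). Control cDNAs also lay in the last 20%, with 4 of 4 in chic, 4 of 4 in Swip-1 and 1 of 3 in tsr. The single control cDNAs of zip and cher lay there, and those of Mlc-c and Act42A did not. The gathering toward the 3′ end was thus not particular to the baits, as far as so few control cDNAs can show.

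In the profilin gene chic the crosslinks gathered away from the 3′-most crosslinked nucleotide. Although 84.3% of its full-length and 85.2% of its NHL cDNAs lay in the last 20% of the stretch, only 15.7% (8 of 51) and 7.41% (4 of 54) lay within 200 nt of the 3′-most crosslinked nucleotide. Their median distance was 1114 nt and 1131 nt. Over the other 9 genes, the full-length share within 200 nt ran from 5.0% in Tm1 and 14.3% in zip through 41.5% in Swip-1 to 86.4% in Mlc-c. The NHL share ran from 6.25% in cher through 42.9% in Tm1 and zip to 75.0% in sqh. A low share within 200 nt was thus not peculiar to chic.

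For the cofilin gene tsr, 82.4% of the full-length (14 of 17) and 74.3% of the NHL cDNAs (26 of 35) were in the last 20% of the stretch. For sqh the shares were 76.2% (16 of 21) and 62.5% (10 of 16), but 42.9% without full-length replicate 3 and 100% without NHL replicate 3. For capt they were 81.8% (9 of 11) and 75.0% (9 of 12). The exact intervals of the baits overlapped for each of these genes.

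In Tm1 and zip the crosslinks were spread over long stretches. For Tm1, 9 of 20 full-length (45.0%) and 4 of 7 NHL cDNAs (57.1%) lay in the last 20%, and for zip 7 of 14 (50.0%) and 5 of 7 (71.4%). Without NHL replicate 3 the NHL share of Tm1 was 100%, and without full-length replicate 3 the full-length share of zip was 33.3%. For cher, 9 of 10 full-length cDNAs (90.0%, interval 55.5% to 99.7%) and 7 of 16 NHL cDNAs (43.8%, interval 19.8% to 70.1%) lay there. The median distance was 154 nt for full-length and 12793 nt for NHL cDNAs. NHL replicate 3 alone supplied 15 of the 16 cDNAs, the NHL share was 0% without it, and the intervals overlap. The planned test between libraries asked for at least 5 cDNAs in all 3 libraries of both baits, which no gene had. With no minimum, a choice made after seeing the data, chic, Swip-1 and Act42A had a share in all 6 bait libraries. The two-sided exact permutation p of the difference between the baits was 0.8, 0.3 and 0.7 (adjusted p = 0.8 for each, 3 tests), where 0.1 is the smallest possible. The mean full-length share was 88.0%, 61.3% and 82.3%, and the mean NHL share 91.1%, 95.8% and 71.4%, with a single Swip-1 cDNA in full-length replicate 2.

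**Figure D4:**
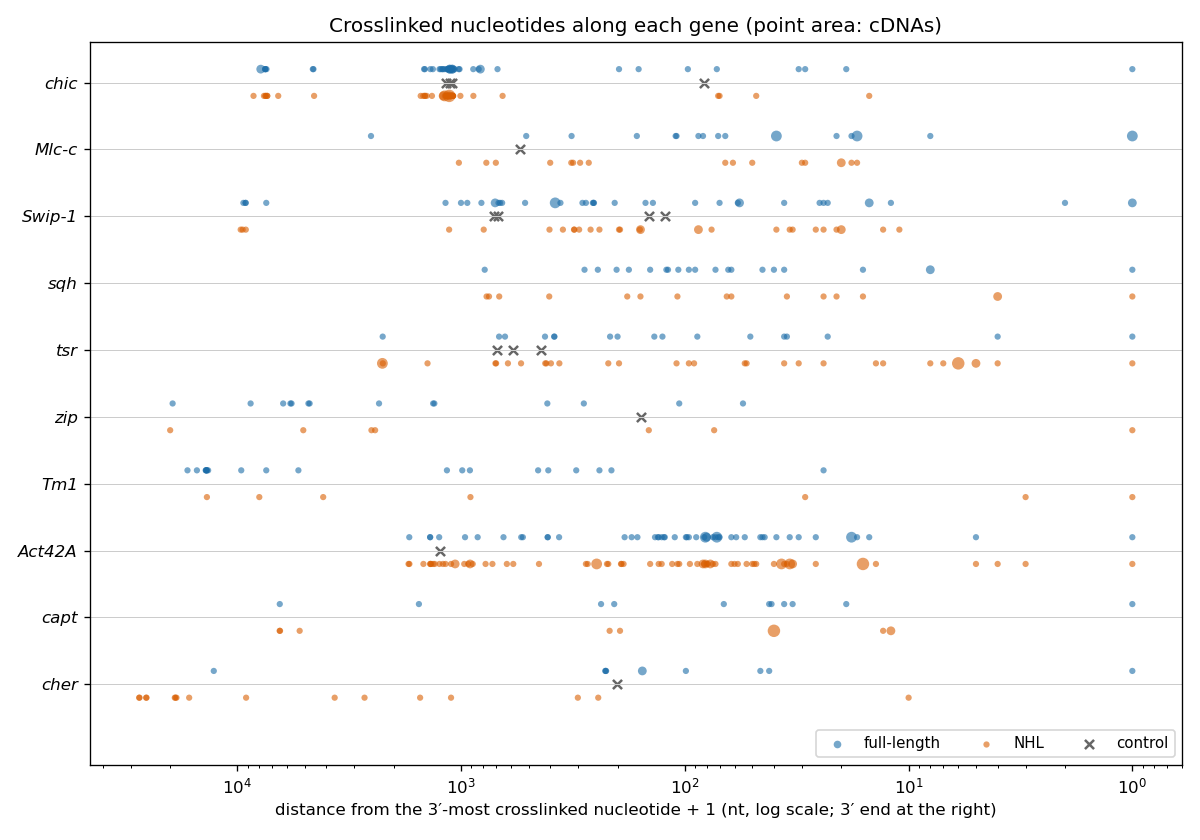
Distance in nt plus 1 of each crosslinked nucleotide from the 3′-most crosslinked nucleotide of the gene (x axis, log scale, 3′ end at the right) for the 10 genes (y axis), with point area giving the cDNAs summed over 3 libraries. Upper points are full-length, lower points NHL, and crosses are control cDNAs. In chic the points gather near 1114 nt, and in cher the NHL points reach 27498 nt while 9 of 10 full-length cDNAs lie within the last 20% of the stretch.

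Control cDNAs give the background measured in the same way. Of the 15 control cDNAs on the 10 genes, 2 lay at a nucleotide that also held a bait cDNA, both in chic (positions 5973240 and 5973265). Of the 15, 9 lay within 10 nt of a bait crosslink, and 1 lay inside a bait cluster. Bait cDNAs lay on 443 nucleotides of the 10 genes, and whether 9 exceeds what their density alone gives was not tested. Of the 4 chic control cDNAs, 3 fell between 1098 and 1172 nt from the 3′-most crosslink, the stretch where the bait cDNAs were densest. Control cDNAs thus lay in the same part of chic, at a depth that does not allow their rate to be set against that of single bait clusters.

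A wider list of 70 cytoskeleton genes gives the setting of the 10. Of these, 61 held a cDNA, and the list summed to 687 full-length, 701 NHL and 53 control cDNAs, or 179, 134 and 163 per 10000. No gene of the wider list passed the edgeR filter, so none was tested with it. Without the filter edgeR called none of them. Clusters of both baits lay in 4 of its 36 genes with at least 10 bait cDNAs, beside 15.2% of all such genes, and in 3 of its 23 genes with at least 20, beside 29.4%. The 4 other actin genes held no cDNA at all. All 8 Arp2/3 complex genes, which start branched filaments, held cDNAs, with 58 full-length, 133 NHL and 9 control cDNAs in sum. Arpc2 alone supplied 19, 80 and 5 of these, so the sums say little about the complex as a whole.

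The 6 genes of the wider list with the most bait cDNAs were Frl, Arpc2, ena, Moe, Cortactin and Rho1. Arpc2, a subunit of the Arp2/3 complex, held 9, 0 and 10 cDNAs in full-length replicates 1, 2 and 3 and 9, 13 and 58 in the NHL libraries. Scaled to the library, all NHL libraries exceeded all full-length libraries. Rho1, a small GTPase that activates myosin II, held 11, 2 and 24 full-length and 3, 2 and 26 NHL cDNAs, and per 10000 cDNAs all full-length libraries exceeded all NHL libraries. Of the 36 genes of the wider list with at least 10 bait cDNAs, full-length exceeded NHL in this way for 5 and NHL exceeded full-length for 1, beside 6.37% and 7.48% of all genes with that minimum. The formin gene Frl had 64 full-length, 61 NHL and 6 control cDNAs and a cluster of both baits. The filament-elongating factor ena had 48, 36 and 7 and the membrane linker Moe 43, 38 and 6, neither with a cluster. Cortactin, which promotes and stabilizes branches, had 39, 30 and 1.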

How the data were processed

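The authors collapsed PCR duplicates after demultiplexing, aligned every replicate on its own to the Drosophila genome of Ensembl release 98 (STAR 2.7.3a in the submitters' processing notes) and called crosslinks with iCount (version not stated there). The deposited values are counts of distinct cDNAs per crosslinked nucleotide, without normalization. The deposited score tables assign these counts to genes and add a false discovery rate, a corrected p-value. Peaks lie below 0.05, and clusters join neighbouring peaks. Positions are counted from 1. The files with flanked clusters were not used.

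The 10 genes and all lists were chosen with earlier results of these data known. Named genes were these 10, genes of the wider list past the edgeR threshold of 0.05, and its 6 genes with most bait cDNAs. Symbols came from the files (Rok by the symbol table). No genome or transcript annotation was used. Counts were summed per gene, and no position of the 10 genes was shared with another gene. Each library held 849 to 40032 cDNAs, and 6.29% to 10.5% lay outside genes and were left out of the fit.

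All 9 libraries entered 1 edgeR 4.0.16 fit (R 4.3.3, TMM, filterByExpr, Benjamini-Hochberg), tested on simulated data. DESeq2 1.42.0, other normalizations and filters, a replicate block and left-out libraries were alternatives. The backgrounds with at least 20 bait cDNAs, the 200 nt window and the test of place with no minimum were chosen after seeing the data. Shares carry exact (Clopper-Pearson) 95% intervals. Intervals and the floor of 3 counts cover counting error only. Python 3.11.15 with pandas 2.3.3 and SciPy 1.17.1 was used.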

Additional observations from a re-analysis of the deposited data

How the results depend on the processing

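The count of the 10 genes called was 0 in all 3 comparisons under every alternative run. The filter admitted at most 2 of them in any alternative that kept it, and none with the replicate block. Only edgeR without the filter and DESeq2 tested all 10. No pairing of the libraries by replicate number was seen over the 73 genes that passed the filter. There, 2 of 9 same-numbered pairs had correlated deviations over 0.1 (range -0.38 to 0.29), and 1 of 9 libraries correlated best with its own number. At this depth a weak pairing could have been missed. With the replicate block, calls among all genes for full-length against NHL went from 30 to 22. The 5 separations of rates between groups numbered 5 to 9 when single libraries were left out, where fewer libraries separate more easily. They numbered 5 with rates on annotated genes alone or with positions given to 1 gene. The 5 rate differences kept their direction in all alternatives. Leaving out a library could not have reversed them, because the groups did not overlap. Genes with clusters of both baits went from 4 to 0 when clusters had to lie within 50 nt in at least 2 libraries of each bait, and ranged from 0 to 4 when single libraries were left out. Genes with a recurrent full-length nucleotide went from 3 to 7 within 5 nt and to 0 in 3 of 3 libraries, with 0 to 3 when single libraries were left out. The NHL count went from 5 to 8 and to 0, with 0 to 3. For chic, the share in the last 10% of the stretch was 23.5% with the full-length protein and 9.26% with the NHL domain.

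Over all genes, calls moved by over 1.5 times in several alternatives. They ranged from 0 to 6 for full-length against control, from 0 to 15 for NHL against control and from 11 to 64 between the baits. Depth limits most comparisons: the control libraries held 3261 cDNAs in sum and 15 on the 10 genes.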
